A study of Mus musculus with 19 samples.

Results

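The ephrins, Eph receptors, semaphorins, plexins and neuropilins form the cell guidance gene families described here, as measured by RNA sequencing of sorted mouse embryonic kidney cells. All symbols present in both deposited tables that follow the naming pattern of these families were taken, without regard to their values. This gave 53 genes among the 20162 gene names of the first table and the 24452 of the second. They comprise 5 ephrin-A ligands, 3 ephrin-B ligands, 9 EphA receptors, 5 EphB receptors, 7 secreted semaphorins (Sema3 genes), 13 membrane-bound semaphorins (Sema4 to Sema7 genes), 9 plexins and 2 neuropilins.

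Ephrins are cell surface ligands, and ephrin-A proteins are held by a lipid anchor while ephrin-B proteins span the membrane. They bind Eph receptor tyrosine kinases on neighbouring cells, and signals can pass into both cells of a pair. Semaphorins bind plexins, and most secreted semaphorins need a neuropilin as a co-receptor. Both systems steer growing axons and blood vessels and set boundaries between cell populations, and both are active in the developing kidney, where nephron progenitors, stroma, ureteric epithelium and vessels grow side by side.

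The 19 libraries fall into 7 groups, and every library came from the CFW mouse strain. At E16.5 (embryonic day), cells of the nephrogenic zone, the outer rim where nephrons form, were sorted into SIX2+ cells (n = 3 libraries) and SIX2- cells (n = 3), with unsorted nephrogenic zone cells (NZC, n = 3) beside them; their titles carry the term MARIS and no allele is given. SIX2 is a transcription factor that marks nephron progenitors. Also at E16.5, GFP+ (n = 3) and GFP- cells (n = 3) came from kidneys with the allele Six2TGC/+, a transgene in which Six2 regulatory sequence drives a fusion of green fluorescent protein and Cre recombinase. At E14.5, Tdt+ (n = 2) and Tdt- cells (n = 2) came from Foxd1Cre;Tdt kidneys. Foxd1 is a transcription factor of stromal progenitors, and a Cre reporter also labels the descendants of cells that expressed the driver. The labels do not say whether libraries of a group came from separate animals, so the p-values measure the spread between these libraries, which may be technical.

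Values are RPKM, read counts divided by gene model length in kilobases and by library depth, and can be compared between genes. Differences are given on the log2(RPKM + 1) scale, positive minus negative fraction, with the standard error (SE) and the Benjamini-Hochberg adjusted p of limma's moderated test over all genes of a table; a gene is called higher or lower at an adjusted p under 0.05. The estimated depth was 26.0 to 45.6 M reads in the E16.5 libraries other than NZC 2, which had 3.09 M. At E14.5 the Tdt+ libraries had 8.44 and 9.43 M reads and the Tdt- libraries 26.5 and 30.3 M, so that depth moved with the group. Of the 53 genes, 46 passed the filter on low values at E16.5 and 45 at E14.5. Epha5, Epha6, Epha8, Epha10 and Plxnb3 passed in neither table, with values from 0 to 0.827 RPKM. Sema4f and Sema6b were not tested at E16.5, nor Plxna4, Sema4a and Sema7a at E14.5.

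The sort genes and most marker lists moved with the fractions. Six2 stood at 295 to 458 RPKM in SIX2+ cells and at 4.43, 7.59 and 46.8 in SIX2- libraries 1 to 3. GFP+ cells had 312 to 348 RPKM of Six2 and GFP- libraries 2.7, 2.88 and 16.8, so library 3 of both negative fractions held the most. Foxd1 was at 205 and 102 RPKM in Tdt+ cells against 29.9 and 25.2 in Tdt- cells. In both E16.5 sorts all 7 stroma, 5 mural, 8 endothelial and 6 leukocyte markers were called lower in the positive fraction, and the 4 ureteric epithelium markers tested out of 6 were too. In each of these sorts 5 of 6 podocyte markers were lower and 1 higher. Of the 7 nephron progenitor markers, 6 were called higher in both sorts and 0 lower. Of 4 neural and glial markers tested, 2 were higher in both sorts and 0 lower. The 6 early nephron markers differed between the sorts. In SIX2+ cells 0 of them were higher and 3 lower, and in GFP+ cells 2 were higher and 1 lower. The 4 erythroid markers were all lower in GFP+ cells, at sums of 7.23 to 30 against 491 to 5210 RPKM, and none was called in the SIX2 sort. The summed stroma markers came to 50.1 to 57.9 RPKM in SIX2+ and 1050 to 1720 in SIX2- cells, and to 56 to 76.1 in GFP+ and 2130 to 2890 in GFP- cells. The summed endothelial markers came to 2.42 to 5.82 against 58.8 to 168 RPKM, and to 1.75 to 7.4 against 47.5 to 90.6. At E14.5, 5 of 7 nephron progenitor, 5 of 6 early nephron, 5 of 6 podocyte, 5 of 8 endothelial and 4 of 5 tested leukocyte markers were lower in Tdt+ cells, whereas the summed stroma markers overlapped, at 2510 and 1550 RPKM in Tdt+ and 2200 and 3000 in Tdt- cells. The part of these cell type differences in the results below was not tested. In bulk samples, fewer cells of a type and less RNA per cell cannot be told apart.

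The calls of the families went in both directions at E16.5, and those at E14.5 were all lower. Between SIX2+ and SIX2- cells, 7 of 46 tested genes were called higher, where 8.37% of all genes were, and 14 were called lower, where 15.9% of all genes were (24.3% in either direction). The median difference of the 46 genes was -0.46, against 0.04 over all genes tested. Between GFP+ and GFP- cells, 8 were called higher (15.9% of all genes) and 15 lower (17% of all genes; 32.9% in either direction), with a median of -0.33 against 0.09. Between Tdt+ and Tdt- cells, 0 of 45 were called higher by limma (1.22% of all genes), which is near the share of all genes. At an unadjusted p under 0.05, 1 was higher, where 6.78% of all genes were. Another 18 were called lower (7.21% of all genes, and 8.43% in either direction), with a median of -0.92 against -0.04. Of these, Ephb1, Sema3b, Sema3e, Sema3g, Sema4d and Sema5b passed the filter on low values through the Tdt- libraries alone. Those genes could only be called lower. Over the whole set, 34 genes were called in at least 1 comparison, 11 were tested and called in none, and 5 were not tested anywhere. The share of all genes called in at least 1 comparison was not counted, so the 34 is not read as particular to the families.

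The SIX2 and GFP comparisons share no library, but they come from 1 fit with a shared estimate of the spread, so their calls are not independent tests. All 7 genes called higher in SIX2+ cells were also called higher in GFP+ cells, and they make up 87.5% of the 8 called there: Efna1, Epha2, Ephb2, Sema3b, Sema3f, Sema4b and Sema4g. Another 9 genes were called lower in both sorts, which is 64.3% of the SIX2 calls and 60% of the GFP calls: Epha1, Ephb3, Plxna2, Plxnd1, Sema3a, Sema3c, Sema3d, Sema5a and Sema6a. No gene of the families had opposite calls. Over all genes, 88.3% of those called higher in SIX2+ cells were also called higher in GFP+ cells (46.5% of the GFP calls), and 82.4% of those called lower were shared (76.8% of the GFP calls), so such sharing was general. Of the 7 shared higher genes, 5 (Efna1, Epha2, Sema3b, Sema4b and Sema4g) were called lower in Tdt+ cells, as were 5 of the 7 nephron progenitor markers. Sema3b could only be called lower there. The like share among all genes higher in both E16.5 sorts was not counted, so these calls are not read as particular to the families.

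**Figure D1:**
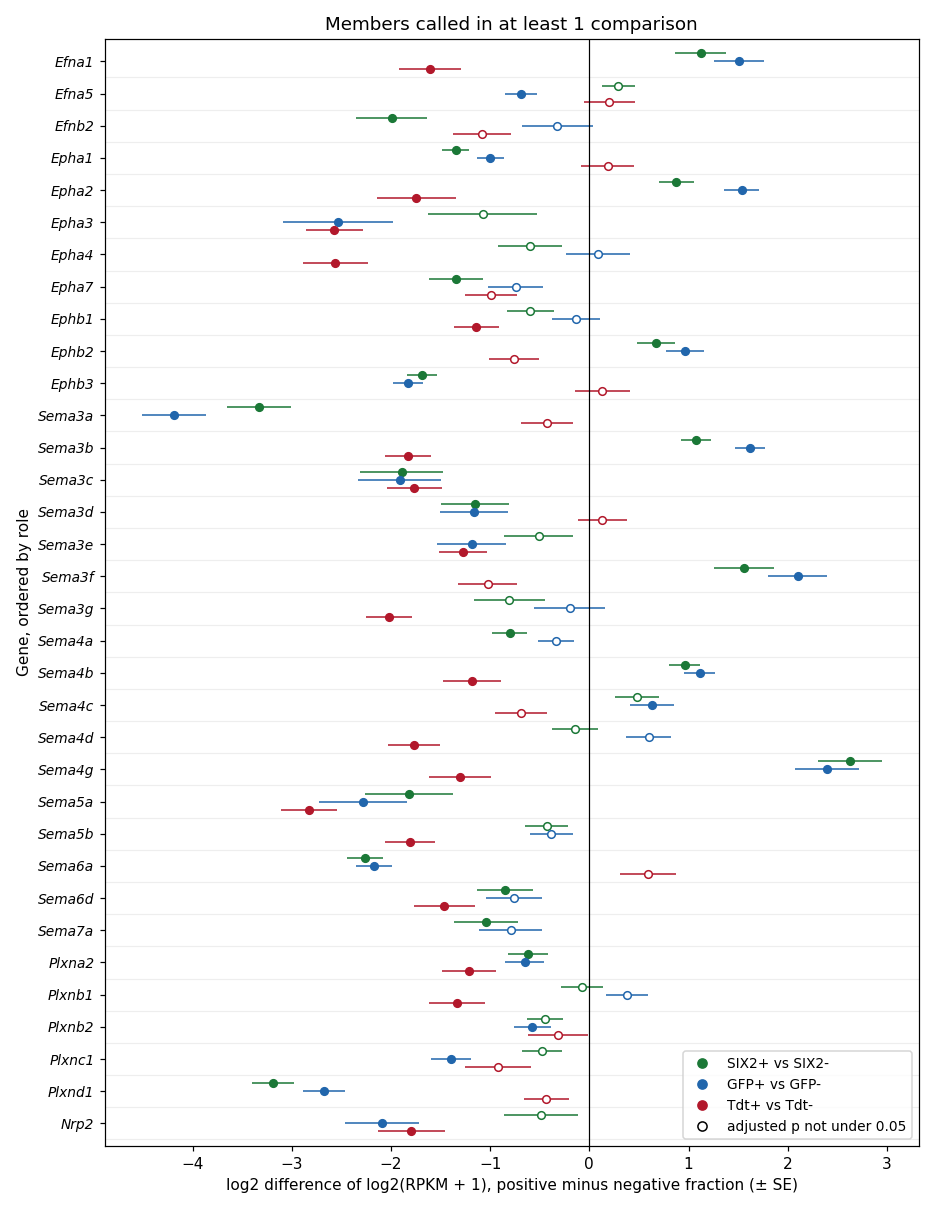
The log2 difference of log2(RPKM + 1) between positive and negative fraction (x axis, bars ± SE) for the 34 genes called in at least 1 comparison (y axis, by role). Filled points passed an adjusted p of 0.05 in limma's test; green, blue and red mark the SIX2, GFP and Tdt sorts. The filled green and blue points lie on the same side of 0 for each gene that has both, and no filled red point lies to the right of 0.

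**Figure D2:**
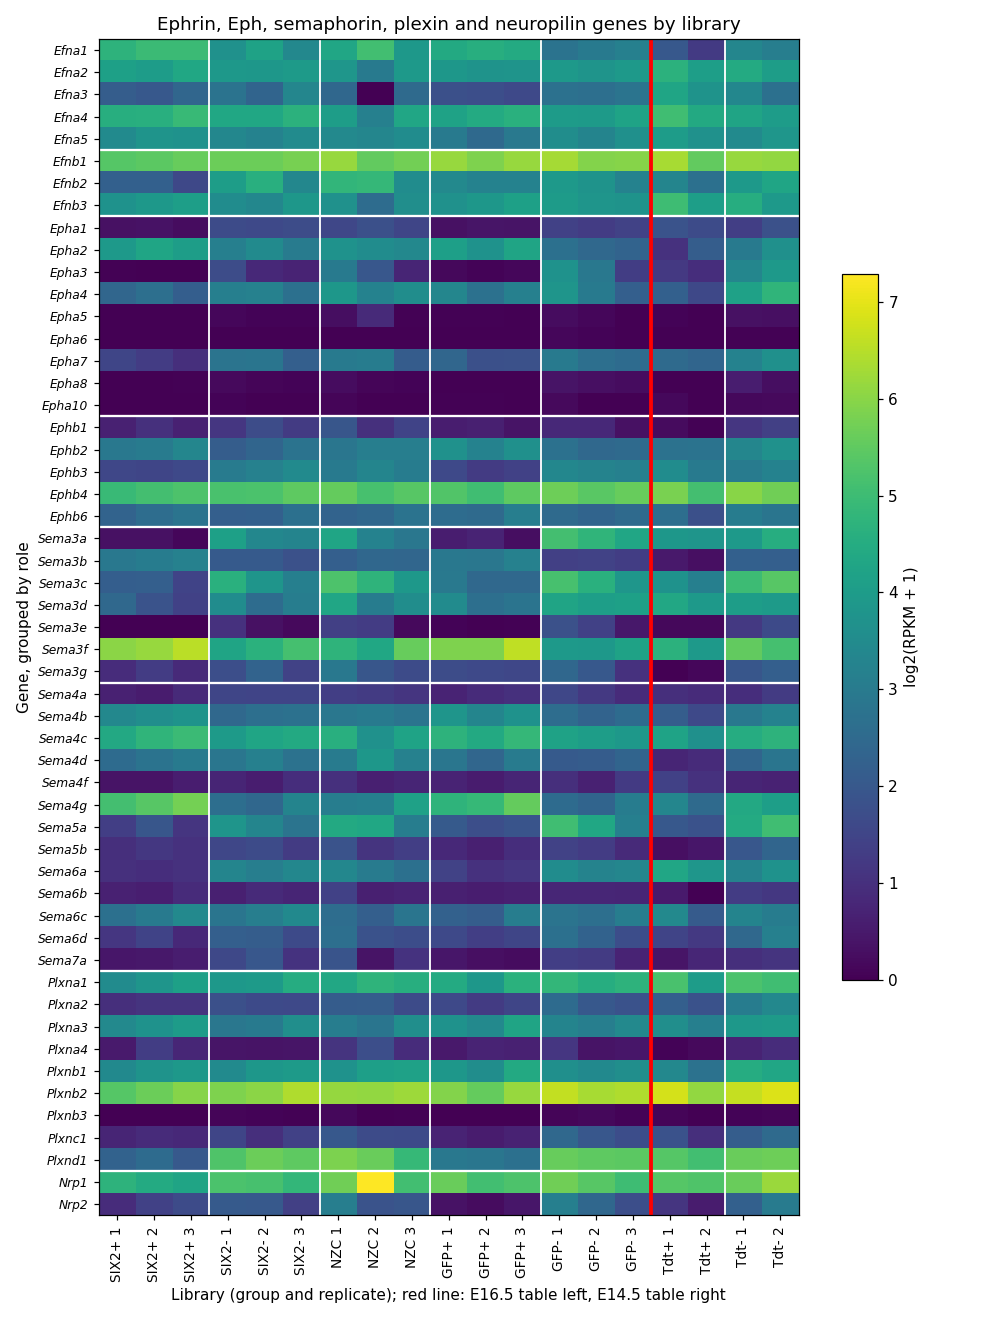
The level of each of the 53 genes (rows, by role) in each of the 19 libraries (columns), as log2(RPKM + 1) on a colour scale from 0 to the highest value. The dark rows of Epha5, Epha6, Epha8, Epha10 and Plxnb3 are the genes tested in neither table, and the brightest cell is Nrp1 in NZC 2, at 155 RPKM.

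Upstream sequence is shown for 4 of the 16 genes called in the same direction in both E16.5 sorts, to show the DNA before a RefSeq start for genes of each direction. They are the 2 higher and the 2 lower genes with the largest mean difference among those with 1 promoter entry in RefSeq (GRCm38.p6) and at most 30 GENCODE M21 exonic bases in the 250 bases before the RefSeq start. The windows are chr4:141300971-141301220 (plus strand) for Epha2, chr4:136836013-136836262 (minus strand) for Ephb2, chr5:13396534-13396783 (plus strand) for Sema3a and chr6:115995006-115995255 (minus strand) for Plxnd1. The Sema3a window lies 271 kb inside the GENCODE M21 gene, between exons and before a RefSeq start within it, whereas the other 3 windows lie at the start of their genes. Each is written 5′ to 3′ on the strand of its gene, and capitals mark GGGCGG or its reverse complement CCGCCC, the core of a GC box.
Epha2: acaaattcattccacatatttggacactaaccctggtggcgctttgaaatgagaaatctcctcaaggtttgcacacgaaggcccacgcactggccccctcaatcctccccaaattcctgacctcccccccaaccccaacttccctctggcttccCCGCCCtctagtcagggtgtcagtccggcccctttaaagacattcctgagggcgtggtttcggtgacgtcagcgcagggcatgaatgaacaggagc
Ephb2: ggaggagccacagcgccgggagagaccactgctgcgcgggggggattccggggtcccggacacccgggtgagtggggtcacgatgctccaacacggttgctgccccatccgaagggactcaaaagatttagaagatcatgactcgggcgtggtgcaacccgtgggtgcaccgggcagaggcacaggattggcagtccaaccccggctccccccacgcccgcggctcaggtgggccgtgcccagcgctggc
Sema3a: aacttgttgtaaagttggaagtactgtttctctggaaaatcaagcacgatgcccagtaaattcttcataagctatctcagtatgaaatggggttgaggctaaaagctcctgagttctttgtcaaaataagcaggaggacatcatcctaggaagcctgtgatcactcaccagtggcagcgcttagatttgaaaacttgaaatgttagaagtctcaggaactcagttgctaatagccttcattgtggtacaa
Plxnd1: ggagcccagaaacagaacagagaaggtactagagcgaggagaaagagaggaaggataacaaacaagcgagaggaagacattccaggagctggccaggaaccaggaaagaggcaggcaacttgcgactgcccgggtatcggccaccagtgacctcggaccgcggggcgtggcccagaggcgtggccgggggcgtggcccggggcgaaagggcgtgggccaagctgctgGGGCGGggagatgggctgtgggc
The GC content is 55.6% for Epha2, 68.4% for Ephb2, 40.8% for Sema3a and 64.8% for Plxnd1. The Sema3a window is not at the outermost start of its gene, so its value does not compare like with like. The motif occurs 1 time in the Epha2 and Plxnd1 windows and 0 times in those of Ephb2 and Sema3a. The RefSeq table held 47 of the 53 genes, with 61 promoters. The motif, on either strand, was in 46 of these 61 windows (75.4%) and in 32.7% of the 32851 windows of all genes, and the median GC content was 64.4% against 52.4%. A match is a description of the letters and not of a bound site.

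Among the ephrin-A ligands, Efna1 was higher in both progenitor fractions and lower in Tdt+ cells, Efna5 was lower in GFP+ cells, and Efna2, Efna3 and Efna4 were called in no comparison. Efna1, the founding ephrin-A ligand, stood at 25.1, 30 and 30.4 RPKM in SIX2+ cells and at 11.8, 17.2 and 9.64 in SIX2- cells. All SIX2+ libraries lay above all SIX2- libraries, and the difference was 1.12 ± 0.25 (SE, adjusted p = 0.0046 by limma). With replicates 1 and 2 alone that call was lost (adjusted p = 0.0545). In GFP+ cells Efna1 stood at 20.4, 22.6 and 20.7 RPKM, and in GFP- cells at 5.78, 6.84 and 8.02. The groups did not overlap, with a difference of 1.51 ± 0.25 (SE, adjusted p = 0.000383). At E14.5 the order was the opposite, with Efna1 at 3.02 and 1.37 RPKM in Tdt+ and 9.18 and 7.73 in Tdt- cells, and the groups did not overlap. That difference was -1.61 ± 0.31 (SE, adjusted p = 0.0186), and without Tdt- 1 the call was lost (adjusted p = 0.0737).

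Efna1 lies on chromosome 3 in a row with Efna3 and Efna4, 32.8 kb before Efna3, which in turn lies 10.4 kb before Efna4, with 0 protein-coding genes between them in GENCODE M21. The neighbours did not share the calls of Efna1. Efna3 had differences of -0.65 (SIX2) and -1.02 (GFP), with adjusted p of 0.403 and 0.127 by limma. It was listed at 0 in NZC 2, the shallow library, and without that library it was called lower in SIX2+ (adjusted p = 0.0231) and in GFP+ cells (adjusted p = 0.00107). Efna3 stood at 18.6 and 12.4 RPKM in Tdt+ and at 9.32 and 5.45 in Tdt- cells, which is the reverse of the order of Efna1 there, but the difference of 0.99 missed the threshold (adjusted p = 0.107 by limma). Without Tdt+ 2, Efna3 (adjusted p = 0.0288) and Efna4 (adjusted p = 0.0281) were called higher. Antisense genes on the opposite strand share 14.1% of the exonic bases of Efna3 and 10.5% of those of Efna4, and whether reads were counted by strand is not given in the sources used here.

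Efna5, a ligand of several EphA receptors, stood at 6.9, 4.63 and 6.76 RPKM in GFP+ and at 10.9, 8.7 and 11.6 in GFP- cells. Every GFP+ library lay below every GFP- library, and the difference was -0.69 ± 0.16 (SE, adjusted p = 0.00454 by limma). In the SIX2 sort the values were 10.3, 12.7 and 12.2 RPKM in SIX2+ and 9.31, 8.34 and 10.5 in SIX2- cells, which overlap, with a difference of 0.29. The test of the difference between the sorts gave 0.99 ± 0.23 (SE) and an adjusted p of 0.132, the smallest of the 46 genes tested. The ephrin-A gene with the highest RPKM was Efna1 in all SIX2+ libraries and Efna4 in all SIX2-, GFP- and Tdt+ libraries.

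Of the EphA receptors, 5 of 9 were tested, and they did not move together. Epha2 was higher in the progenitor fractions, Epha1 was lower in both, Epha7 was lower in SIX2+ cells, and Epha3 was lower in GFP+ and Tdt+ cells. Epha4 was called lower in Tdt+ cells and not called in the E16.5 sorts. Epha2, a receptor for ephrin-A1, stood at 14.2, 18.6 and 15.7 RPKM in SIX2+ and at 7.76, 10.2 and 7.15 in SIX2- cells. The SIX2+ libraries were all higher, by 0.88 ± 0.18 (SE, adjusted p = 0.00199 by limma). GFP+ cells had 16.4, 12.2 and 18 RPKM of Epha2 and GFP- cells 5.44, 4.51 and 4.02. Here too the groups did not overlap, and the difference was 1.54 ± 0.18 (SE, adjusted p = 1.21e-05). Epha2 had the highest RPKM of the EphA genes in every SIX2+, GFP+ and SIX2- library, with 68.7% to 76.8% of the summed EphA RPKM in the SIX2+ libraries.

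In the E14.5 sort Epha2 was at 1.07 and 3.41 RPKM in Tdt+ and 7.05 and 11.7 in Tdt- cells. Both Tdt+ libraries lay below both Tdt- libraries, with a difference of -1.74 ± 0.40 (SE, adjusted p = 0.0358 by limma). Without Tdt- 2 (adjusted p = 0.109), with a pseudocount of 0.1 (0.0577) or with quantile normalisation (0.091) the call was lost.

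Epha3, another receptor for ephrin-A ligands, was at most 0.106 RPKM in the 6 progenitor libraries of both sorts, and was listed at 0 in SIX2+ 2. In GFP- cells it stood at 12.1, 6.58 and 1.49 RPKM, against 0.106, 0.0515 and 0.0936 in GFP+ cells. Neither group overlapped the other, and the difference was -2.53 ± 0.55 (SE, adjusted p = 0.00274 by limma). The SIX2- libraries had 2.25, 0.807 and 0.647 RPKM, and that difference, -1.08, was not called (adjusted p = 0.193) except with a pseudocount of 0.1 (adjusted p = 0.00506). At E14.5 Epha3 stood at 1.3 and 0.924 RPKM in Tdt+ and 9.17 and 14.3 in Tdt- cells. The 2 groups lay far apart, at -2.57 ± 0.29 (SE, adjusted p = 0.00245).

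Epha4, a receptor that binds both ephrin classes, stood at 3.75 and 1.99 RPKM in Tdt+ and at 17.1 and 26.3 in Tdt- cells. There was no overlap between the groups, and the difference was -2.56 ± 0.32 (SE, adjusted p = 0.00373 by limma). It was the EphA gene with the highest RPKM in both Tdt- libraries. Its differences at E16.5, -0.60 between SIX2+ and SIX2- and 0.09 between GFP+ and GFP- cells, were not called.

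Epha7 stood at 1.9, 1.46 and 0.959 RPKM in SIX2+ and at 5.95, 6.11 and 3.63 in SIX2- cells. These groups did not overlap, with a difference of -1.34 ± 0.28 (SE, adjusted p = 0.00223 by limma). In the GFP sort its difference of -0.74 just missed the threshold (adjusted p = 0.0522) and passed with the replicate number as a block (adjusted p = 0.00271). It also passed without GFP+ 1 (0.0288), NZC 2 (0.0339), NZC 3 (0.0235) or SIX2- 3 (0.0468). Epha1 was low throughout, from 0.19 to 0.329 RPKM in the SIX2+ and GFP+ libraries and from 1.46 to 2.24 in the SIX2- and GFP- libraries. It was called lower in both sorts (adjusted p = 5.2e-06 and 6.72e-05 by limma), and 6.01% of its exonic bases are shared with Zyx on the opposite strand. In Tdt+ cells Epha1 was at 2.62 and 2.17 RPKM, against 1.53 and 2.52 in Tdt- cells, and these groups overlapped. The EphA genes summed to 13.7 and 12.7 RPKM in the Tdt+ libraries and to 44.1 and 67.1 in the Tdt- libraries.

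**Figure D3:**
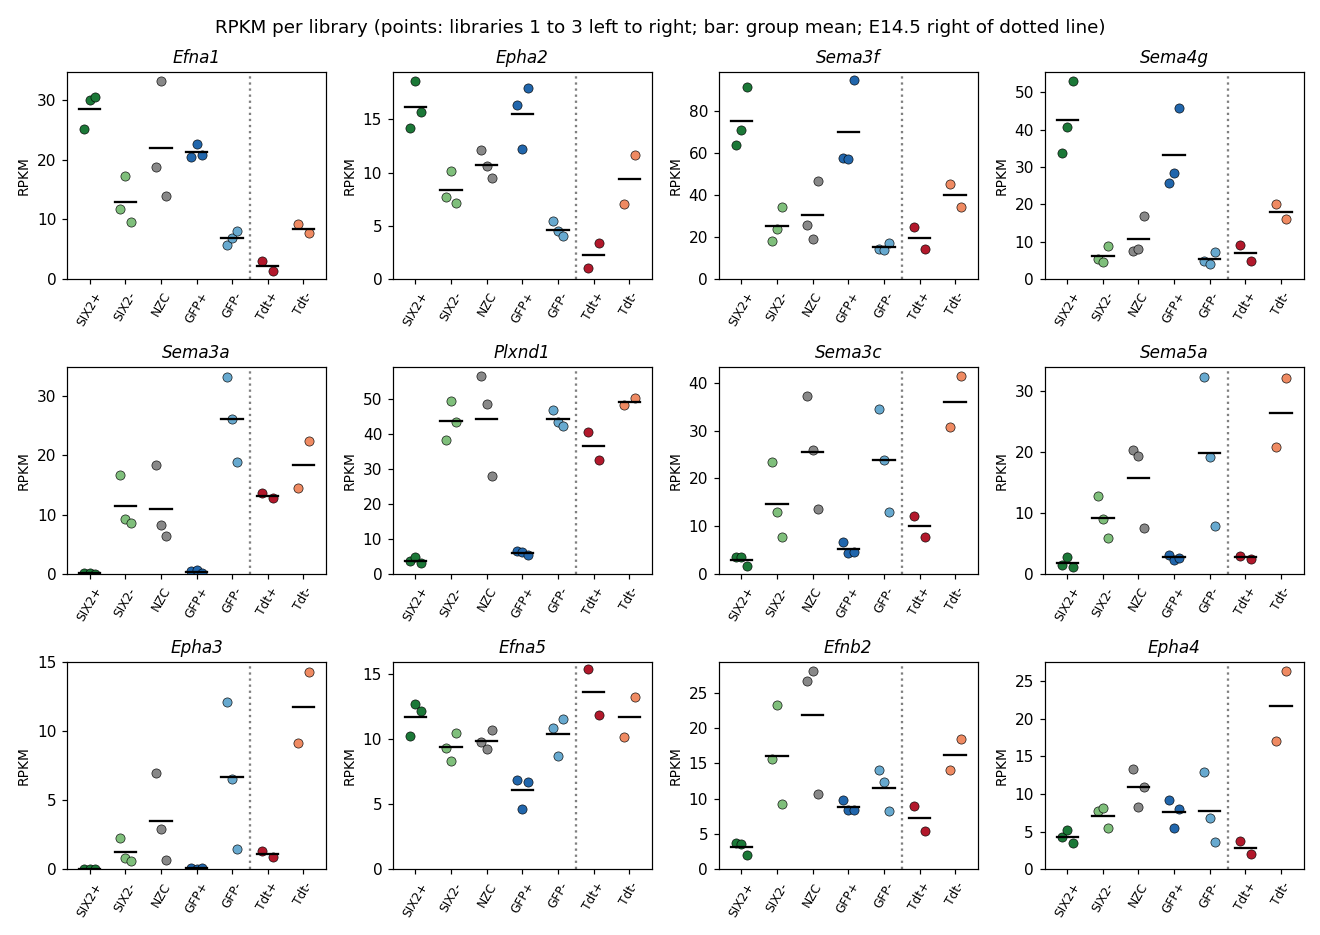
RPKM per library (y axis) by group (x axis) for 12 genes; points are libraries and bars group means, with the E14.5 groups to the right of the dotted line. For Efna1, Epha2, Sema3f and Sema4g all SIX2+ points lie above all SIX2- points and all GFP+ points above all GFP- points, Sema3a and Plxnd1 are low in the SIX2+ and GFP+ libraries alone, and for Sema5a and Epha4 both Tdt+ points lie below both Tdt- points.

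Efnb2 was the ephrin-B ligand that was called, and the call came in the SIX2 sort. Efnb2, the ligand known from arterial vessels, stood at 3.68, 3.66 and 2 RPKM in SIX2+ and at 15.6, 23.2 and 9.26 in SIX2- cells. All SIX2+ libraries were lower, by -1.99 ± 0.35 (SE, adjusted p = 0.000743 by limma). In the GFP sort it stood at 9.82, 8.41 and 8.46 RPKM in GFP+ and at 14, 12.4 and 8.32 in GFP- cells. These overlapped, with a difference of -0.32 (adjusted p = 0.525). The difference between the sorts was -1.67 ± 0.50 (SE), with an adjusted p of 0.313 without and 0.0393 with the replicate number as a block. At E14.5 Efnb2 stood at 9.01 and 5.49 RPKM in Tdt+ and at 14 and 18.4 in Tdt- cells, without overlap. That difference of -1.08 missed the threshold (adjusted p = 0.064 by limma). It passed with the replicate number as a block (adjusted p = 0.0023), though the Tdt numbers were not taken as pairs. Efnb1 had the highest RPKM of the 3 ephrin-B genes in each of the 19 libraries, from 40.1 to 79.3, and neither it nor Efnb3 was called in any comparison.

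Among the EphB receptors, Ephb2 was higher and Ephb3 lower in both progenitor fractions, and Ephb4, the receptor known from veins, was called nowhere. Ephb2 stood at 6.59, 7.21 and 9.22 RPKM in SIX2+ and at 3.47, 4.15 and 5.85 in SIX2- cells. The groups did not overlap, and the difference was 0.67 ± 0.19 (SE, adjusted p = 0.0171 by limma). It was lost without SIX2- 1 (adjusted p = 0.0956), SIX2- 2 (0.063) or SIX2+ 3 (0.0817). GFP+ cells had 11.9, 8.42 and 11.5 RPKM of Ephb2 and GFP- cells 5.55, 4.49 and 4.69. There all GFP+ libraries were higher, by 0.96 ± 0.19 (SE, adjusted p = 0.00127). In Tdt+ cells Ephb2 was at 5.65 and 5.91 RPKM, below the 9.22 and 11.9 of Tdt- cells, but this was not called (adjusted p = 0.116).

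Ephb3 stood at 1.94, 1.88 and 2.02 RPKM in SIX2+ and at 7.23, 8.26 and 10.1 in SIX2- cells. The SIX2+ libraries were close together and all lower, by -1.68 ± 0.15 (SE, adjusted p = 1.82e-06 by limma). GFP+ cells had 2.06, 1.42 and 1.66 RPKM of Ephb3 and GFP- cells 9.33, 8.59 and 7.94. The gap was much the same, at -1.83 ± 0.15 (SE, adjusted p = 5.33e-07). In Tdt+ cells it stood at 10.7 and 6.95 RPKM and in Tdt- cells at 7.18 and 8.44, which overlap. Ephb4 had the highest RPKM of the EphB genes in each of the 19 libraries, from 29.5 to 63.2. Ephb1, at most 2.84 RPKM anywhere, was called lower in Tdt+ cells by -1.14 (adjusted p = 0.0207), and not with quantile normalisation (adjusted p = 0.367).

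**Figure D4:**
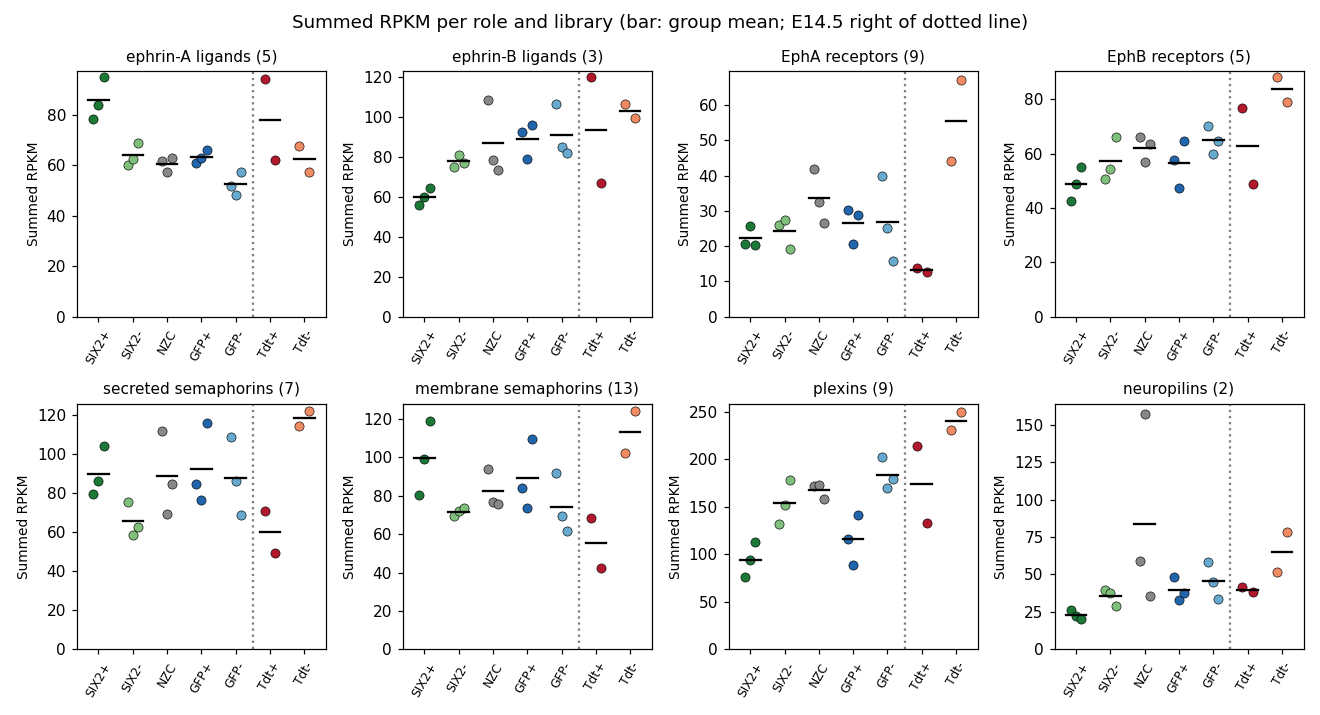
The summed RPKM of the genes of each role (y axis) in each library (points) by group (x axis), with the group mean as a bar; the number of genes summed stands in each title. The plexin sum was 76.4 to 113 RPKM in the SIX2+ and 132 to 179 in the SIX2- libraries, and the neuropilin sum of NZC 2, at 157 RPKM, stands apart from those of NZC 1 and NZC 3.

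The 7 secreted semaphorins split into genes high in progenitors (Sema3b and Sema3f) and genes low in them (Sema3a, Sema3c and Sema3d in both sorts, Sema3e in the GFP sort). Sema3f, a repellent that signals through neuropilin-2, stood at 63.9, 71.1 and 91.4 RPKM in SIX2+ and at 18.1, 24 and 34.4 in SIX2- cells. All SIX2+ libraries were higher, by 1.56 ± 0.30 (SE, adjusted p = 0.00137 by limma). GFP+ cells had 58, 57.5 and 94.8 RPKM of Sema3f and GFP- cells 14.48, 13.7 and 17.4. These groups were also apart, by 2.10 ± 0.30 (SE, adjusted p = 8.92e-05). Sema3f alone made up 80.2% to 87.9% of the summed secreted semaphorin RPKM in the SIX2+ libraries and 68.6% to 81.9% in the GFP+ libraries. In Tdt+ cells it stood at 24.9 and 14.4 RPKM, below the 45.6 and 34.4 of Tdt- cells, and the difference of -1.02 was not called (adjusted p = 0.081). Without Tdt+ 1 it was (adjusted p = 0.00329).

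Sema3b, which lies 72.3 kb from Sema3f on chromosome 9 with 3 protein-coding genes between them, was lower in level and changed alike. It stood at 6.49, 7.34 and 8.21 RPKM in SIX2+ and at 3.2, 3.22 and 2.48 in SIX2- cells. There was no overlap between the groups, with a difference of 1.07 ± 0.15 (SE, adjusted p = 9.64e-05 by limma). GFP+ cells had 6.57, 6.4 and 8.29 RPKM of Sema3b and GFP- cells 1.62, 1.73 and 1.52. All GFP+ libraries were higher, by 1.62 ± 0.15 (SE, adjusted p = 1.42e-06). At E14.5 it was at 0.421 and 0.223 RPKM in Tdt+ against 3.71 and 3.65 in Tdt- cells, lower by -1.83 ± 0.23 (SE, adjusted p = 0.00379).

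Sema3a, a secreted ligand that acts through neuropilin-1 and plexin-A receptors, had the largest fall of the 46 genes in both sorts. It stood at 0.256, 0.261 and 0.0887 RPKM in SIX2+ and at 16.7, 9.29 and 8.68 in SIX2- cells. The SIX2+ values were all near 0, and the difference was -3.33 ± 0.32 (SE, adjusted p = 3.15e-06 by limma). GFP+ cells had 0.506, 0.665 and 0.217 RPKM of Sema3a and GFP- cells 33.2, 26.1 and 18.9. Again the groups lay far apart, by -4.19 ± 0.32 (SE, adjusted p = 2.5e-07). Both E14.5 fractions held Sema3a at like levels, with 13.6 and 12.8 RPKM in Tdt+ and 14.495 and 22.4 in Tdt- cells, and the difference of -0.43 was not called (adjusted p = 0.38).

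Sema3c, known for its role in heart outflow tract growth, was lower in the positive fraction of all 3 sorts. It stood at 3.53, 3.65 and 1.78 RPKM in SIX2+ and at 23.5, 12.9 and 7.81 in SIX2- cells. Neither group overlapped the other, with a difference of -1.89 ± 0.42 (SE, adjusted p = 0.00379 by limma). GFP+ cells had 6.67, 4.52 and 4.56 RPKM of Sema3c and GFP- cells 34.6, 23.9 and 13.1. The GFP+ libraries were all lower, by -1.91 ± 0.42 (SE, adjusted p = 0.00285). In Tdt+ cells it stood at 12.2 and 7.81 RPKM and in Tdt- cells at 30.8 and 41.3. That gap was -1.77 ± 0.28 (SE, adjusted p = 0.00831).

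Sema3d stood at 4.53, 2.66 and 1.64 RPKM in SIX2+ and at 10.6, 4.92 and 7.54 in SIX2- cells. The lowest SIX2- library was just above the highest SIX2+ library, and the difference was -1.15 ± 0.34 (SE, adjusted p = 0.0243 by limma). GFP+ cells had 10.5, 5.38 and 5.98 RPKM of Sema3d and GFP- cells 18.2, 16 and 16.7, without overlap. The difference was -1.16 ± 0.34 (SE, adjusted p = 0.0185). The SIX2 call was lost without SIX2- 1 (adjusted p = 0.123), SIX2- 3 (0.0595), SIX2+ 2 (0.0696) or SIX2+ 3 (0.114), and with replicates 1 and 2 alone (0.282). The GFP call was lost without GFP- 1 (0.0593), GFP+ 2 (0.0764) or GFP+ 3 (0.0664), and with replicates 1 and 2 alone (0.146). Tdt+ cells had 19.8 and 14 RPKM of Sema3d and Tdt- cells 15.5 and 14.8, which overlap.

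Sema3d, Sema3a and Sema3e follow each other on chromosome 5, with gaps of 536 kb and 423 kb and 0 and 1 protein-coding genes between them. Sema3e, a ligand that binds plexin-D1 directly, reached at most 0.0479 RPKM in the SIX2+ and GFP+ libraries. It was called lower in GFP+ cells by -1.19 (adjusted p = 0.0184 by limma) and in Tdt+ cells by -1.28 (adjusted p = 0.017), from means under 2 RPKM in the negative fractions. The GFP call was lost without GFP- 1 (adjusted p = 0.0949), GFP- 2 (0.0653) or GFP+ 2 (0.0517) and with quantile normalisation (0.0627), and the Tdt call with quantile normalisation (0.237). Sema3g was listed at 0 in Tdt+ 1 and stood at 0.0966 RPKM in Tdt+ 2, against 2.89 and 3.63 in Tdt- cells. Its difference was -2.02 ± 0.23 (SE, adjusted p = 0.00268).

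Sema4g and Sema4b, both class 4 semaphorins anchored in the membrane, were higher in the progenitor fractions and lower in Tdt+ cells. Sema4g stood at 33.8, 40.8 and 53 RPKM in SIX2+ and at 5.25, 4.45 and 8.8 in SIX2- cells. The groups lay far apart, by 2.63 ± 0.32 (SE, adjusted p = 2.78e-05 by limma), the largest rise of the 46 genes. GFP+ cells had 25.7, 28.4 and 45.9 RPKM of Sema4g and GFP- cells 4.89, 4.12 and 7.38. All GFP+ libraries were higher, by 2.40 ± 0.32 (SE, adjusted p = 4.7e-05). It had the highest RPKM of the membrane-bound semaphorins in each of the 6 SIX2+ and GFP+ libraries. In Tdt+ cells Sema4g stood at 9.19 and 4.77 RPKM and in Tdt- cells at 20 and 16, lower by -1.30 ± 0.32 (SE, adjusted p = 0.0439). It missed the threshold with a pseudocount of 0.1 (adjusted p = 0.0556 by limma). This call was lost without Tdt- 1 (adjusted p = 0.21), and with values rescaled to TPM (0.0699).

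Sema4b stood at 9.6, 11.1 and 12.3 RPKM in SIX2+ and at 4.53, 5.32 and 5.64 in SIX2- cells. The SIX2+ libraries were all higher, by 0.96 ± 0.16 (SE, adjusted p = 0.000368 by limma). GFP+ cells had 12.9, 8.97 and 12 RPKM of Sema4b and GFP- cells 5.06, 4.03 and 4.83. These groups did not overlap, with a difference of 1.11 ± 0.16 (SE, adjusted p = 7.67e-05). Tdt+ cells had 3.47 and 2.04 RPKM and Tdt- cells 6.51 and 8.35, a difference of -1.18 ± 0.29 (SE, adjusted p = 0.0453). This call missed the threshold with a pseudocount of 0.1 (adjusted p = 0.0597 by limma), quantile normalisation (0.0989) or values rescaled to TPM (0.0726). It was lost without Tdt- 1 (adjusted p = 0.139), Tdt- 2 (0.42) or Tdt+ 2 (0.0673).

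Sema4c, a ligand of plexin-B2, stood at 25.4, 20.5 and 27.9 RPKM in GFP+ and at 17.2, 15.5 and 13.8 in GFP- cells. All GFP+ libraries were higher, but the call was near the threshold, at 0.63 ± 0.22 (SE, adjusted p = 0.0408 by limma). With the replicate number as a block it was lost (adjusted p = 0.0519). It was also lost without GFP- 1 (0.0591), GFP- 2 (0.0932), GFP- 3 (0.118), GFP+ 1 (0.101), GFP+ 3 (0.133), SIX2- 2 (0.0537) or SIX2+ 2 (0.0536). A transcript on the opposite strand shares 7.27% of the exonic bases of Sema4c. Sema4d, a ligand of plexin-B1, was lower in Tdt+ cells, at 0.696 and 0.862 RPKM against 4.15 and 6.11 in Tdt- cells. The groups did not overlap, with a difference of -1.77 ± 0.26 (SE, adjusted p = 0.00661).

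Sema5a, which carries thrombospondin repeats beside its semaphorin domain, was lower in the positive fraction of all 3 sorts. It stood at 1.57, 2.89 and 1.18 RPKM in SIX2+ and at 12.8, 8.98 and 5.98 in SIX2- cells. Neither group overlapped the other, with a difference of -1.82 ± 0.44 (SE, adjusted p = 0.00709 by limma). GFP+ cells had 3.17, 2.37 and 2.69 RPKM of Sema5a and GFP- cells 32.3, 19.1 and 7.85. The GFP- libraries spread widely but were all higher, and the difference was -2.28 ± 0.44 (SE, adjusted p = 0.00116). Tdt+ cells had 3.03 and 2.55 RPKM and Tdt- cells 20.8 and 32. At -2.83 ± 0.28 (SE, adjusted p = 0.00148) this was the largest difference of the 45 genes tested at E14.5. Its relative Sema5b was called lower in Tdt+ cells, by -1.80 (adjusted p = 0.00529), from a mean under 5 RPKM.

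Sema6a, a transmembrane semaphorin that signals through plexin-A2 and plexin-A4, was low in both progenitor fractions and not in Tdt+ cells. It stood at 1.01, 0.932 and 1.05 RPKM in SIX2+ and at 8.88, 7.62 and 9.32 in SIX2- cells. The SIX2+ libraries were all lower, by -2.26 ± 0.18 (SE, adjusted p = 4.17e-07 by limma). GFP+ cells had 1.71, 1.06 and 1.23 RPKM of Sema6a and GFP- cells 10.7, 8.56 and 9.16. These groups did not overlap, with a difference of -2.17 ± 0.18 (SE, adjusted p = 4.45e-07). Tdt+ cells had 19 and 13.1 RPKM and Tdt- cells 8.52 and 12.1. Both Tdt+ libraries were above both Tdt- libraries and Sema6a had the highest RPKM of the membrane-bound semaphorins in both Tdt+ libraries, but the difference of 0.59 was not called (adjusted p = 0.26).

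Sema6d stood at 1.83 and 1.32 RPKM in Tdt+ and at 4.52 and 8.02 in Tdt- cells, lower by -1.46 ± 0.31 (SE, adjusted p = 0.0256 by limma). With quantile normalisation this missed the threshold (adjusted p = 0.0794). That call was lost without Tdt- 2 (adjusted p = 0.361). Sema6d, Sema7a and Sema4a, all at most 3.6 RPKM in the SIX2 sort, were called lower in SIX2+ cells by -0.85, -1.04 and -0.80. With quantile normalisation all of these calls were lost (adjusted p = 0.146, 0.143 and 0.151 by limma). The Sema6d call there (adjusted p = 0.0421) depended on single libraries, and leaving out GFP+ 1, GFP+ 2, GFP+ 3, GFP- 2, SIX2- 1, SIX2- 2, SIX2+ 1 or SIX2+ 3 ended it, with adjusted p from 0.0538 to 0.154. The Sema7a call (adjusted p = 0.0282) was lost without SIX2+ 1 (0.0783), SIX2- 1 (0.0824), SIX2+ 2 (0.0795), SIX2- 2 (0.133) or SIX2+ 3 (0.0596). In the GFP sort Sema7a missed the threshold (-0.79, adjusted p = 0.0729) and passed without NZC 1 (0.0251) or NZC 2 (0.02), with a pseudocount of 0.1 (0.0301) and with values rescaled to TPM (0.0418).

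In the reported tests no plexin was called higher, where 8.37% (SIX2), 15.9% (GFP) and 1.22% (Tdt) of all genes were. Called lower were 2 in SIX2+, 4 in GFP+ and 2 in Tdt+ cells, where 15.9%, 17% and 7.21% of all genes were. Of the 9 plexins, 1 was not tested at E16.5 and 2 at E14.5, so 0 higher calls do not set them apart. With the replicate number as a block, Plxna3 was called higher in SIX2+ cells (0.56, adjusted p = 0.0146 by limma) and GFP+ cells (0.53, adjusted p = 0.0157). The block also gave Plxnb1 in GFP+ cells (0.38, adjusted p = 0.0471). Without a block, Plxna3 passed in SIX2+ cells with replicates 1 and 2 alone (0.64, adjusted p = 0.045). Plxna4 passed there with quantile normalisation (0.90, adjusted p = 0.0257). Plxna3 stood at 9.81, 12.2 and 15 RPKM in SIX2+ 1 to 3 and at 6.43, 6.89 and 11.1 in SIX2- 1 to 3, and at 12.2, 9.72 and 18.2 in GFP+ against 8.77, 7.59 and 9.79 in GFP- cells. The positive library was the higher in each same-numbered pair, while the groups overlapped. Plxnd1, a receptor known from endothelial cells, stood at 3.9, 4.79 and 3.1 RPKM in SIX2+ and at 38.2, 49.4 and 43.6 in SIX2- cells. The lowest SIX2- library was far above all SIX2+ libraries, and the difference was -3.19 ± 0.21 (SE, adjusted p = 7.45e-08 by limma), the smallest adjusted p of the set. GFP+ cells had 6.56, 6.32 and 5.45 RPKM of Plxnd1 and GFP- cells 46.9, 43.6 and 42.4. All GFP+ libraries were lower, by -2.67 ± 0.21 (SE, adjusted p = 2.91e-07). In Tdt+ cells it stood at 40.5 and 32.5 RPKM and in Tdt- cells at 48.3 and 50.3, and the difference of -0.43 was not called (adjusted p = 0.302). Beside this, the summed endothelial markers in the Tdt+ libraries were 22.1 and 29.9 RPKM, against 85 and 113 in the Tdt- libraries.

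Plxnb2 had the highest RPKM of the 9 plexins in each of the 19 libraries, from 40.1 to 119. In GFP+ cells it stood at 60.3, 46.5 and 70 RPKM and in GFP- cells at 97.1, 79.4 and 85.2. The GFP+ libraries were all lower, by -0.57 ± 0.18 (SE, adjusted p = 0.0273 by limma). That call was lost without GFP- 1 (adjusted p = 0.105), GFP- 3 (0.0553), GFP+ 1 (0.0536) or GFP+ 2 (0.121). In the SIX2 sort the difference of -0.45 missed the threshold (adjusted p = 0.0963) and passed with the replicate number as a block (adjusted p = 0.0238).

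Plxnb1, the receptor of Sema4d, stood at 9.65 and 5.7 RPKM in Tdt+ and at 21.8 and 19 in Tdt- cells. There was no overlap between the groups, and the difference was -1.34 ± 0.28 (SE, adjusted p = 0.0268 by limma). Without Tdt- 1 the call was lost (adjusted p = 0.126). Plxna2 stood at 3.6 and 2.56 RPKM in Tdt+ and at 7.29 and 9.57 in Tdt- cells, lower by -1.21 ± 0.27 (SE, adjusted p = 0.0332), and this was lost without Tdt- 1 (0.105) or Tdt- 2 (0.394). The Tdt call also missed the threshold with quantile normalisation (adjusted p = 0.074 by limma) or values rescaled to TPM (0.0551). Plxna2 was also called lower in SIX2+ cells (-0.62, adjusted p = 0.034) and GFP+ cells (-0.65, adjusted p = 0.021), at no more than 4.8 RPKM. Quantile normalisation ended both of these calls (0.339 and 0.0922). Leaving out any 1 SIX2+ or SIX2- library ended the SIX2 call, with adjusted p from 0.0588 to 0.122, and leaving out GFP- 1 (0.115) or GFP+ 2 (0.0836) ended the GFP call. Plxnc1, the receptor of Sema7a, was lower in GFP+ cells by -1.39 (adjusted p = 0.000104), at 0.455 to 0.667 RPKM against 2.29 to 4.46.

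The co-receptors differed from each other. Nrp2 was called lower in GFP+ cells by -2.09 ± 0.37 (SE, adjusted p = 0.000561 by limma), at 0.292, 0.177 and 0.351 RPKM against 7.76, 4.39 and 2.36 in GFP- cells. In the SIX2 sort it stood at 0.9, 1.65 and 2.2 RPKM in SIX2+ and at 3.2, 3.08 and 1.59 in SIX2- cells. These overlapped, with a difference of -0.49 (adjusted p = 0.407). In Tdt+ cells Nrp2 was at 1.16 and 0.482 RPKM and in Tdt- cells at 3.66 and 7.24, lower by -1.79 ± 0.34 (SE, adjusted p = 0.0171). With quantile normalisation this missed the threshold (adjusted p = 0.0548 by limma). That call was lost without Tdt- 2 (adjusted p = 0.159). Nrp1 had the higher RPKM of the pair in each of the 19 libraries and was called in no comparison. NZC 2, the library with 3.09 M reads, had 155 RPKM of Nrp1 against 51.4 and 32.6 in NZC 1 and NZC 3, and without NZC 2 the difference of -0.59 between SIX2+ and SIX2- cells passed (adjusted p = 0.0483).

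Within the GFP- fraction, Sema3a, Sema3c, Sema5a, Epha3, Nrp2 and Sema3e were highest in library 1 and lowest in library 3. The same genes had this order in the SIX2- fraction, with Sema3a at 16.7, 9.29 and 8.68 RPKM in SIX2- 1 to 3. All of them but Nrp2 had it in the NZC libraries too, so the order is not particular to GFP- cells. GFP- 3 had 16.8 RPKM of Six2, the most of the fraction, and GFP- 1 had 34.6 RPKM of summed neural and glial markers, against 2.43 and 2.25 in the others. Other marker sums were graded across GFP- 1, 2 and 3 too: erythroid markers at 491, 2920 and 5210 RPKM, podocyte markers at 141, 81.4 and 54.2, and stroma markers at 2890, 2450 and 2130. In SIX2- 1, 2 and 3 the erythroid sums were 8.25, 10.8 and 2.39 RPKM. The podocyte sums there were 125, 161 and 73.6, and the stroma sums 1510, 1050 and 1720. The part of these differences between libraries in the results was not tested, but leaving out GFP- 1 ended the calls of Sema3d, Sema3e, Plxna2, Plxnb2 and Sema4c among the 23 and no others.

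The unsorted nephrogenic zone cells contain both SIX2+ and SIX2- cells. For 13 of the 21 genes called between SIX2+ and SIX2- cells, the mean of the NZC libraries lay between the means of the sorted fractions. For the other 8 (Efnb2, Epha7, Plxna2, Plxnd1, Sema3c, Sema3d, Sema5a and Sema6d) it lay above both. Sema3c, for instance, stood at 37.3, 25.9 and 13.7 RPKM in NZC 1 to 3, and Efnb2 at 26.7, 28 and 10.6. Without NZC 2 the numbers were 14 and 7. Over all 46 tested genes the NZC mean lay between the fractions for 17 and above both for 23.

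Whether the SIX2 and GFP differences themselves differed was tested for the 46 genes. By limma 0 were called (0.14% of all genes, 0.0468% higher and 0.0936% lower). At an unadjusted p under 0.05, 3 were higher and 4 lower, where 2.12% and 3.36% of all genes were. Efna5, Nrp2 and Plxnc1 had the higher differences, at 0.99, 1.60 and 0.91, and Efnb2, Epha2, Sema3b and Sema4d the lower ones, at -1.67, -0.66, -0.54 and -0.74. Their adjusted p ran from 0.132 to 0.829. This does not show that the sorts were alike, since the SE of these differences was from 0.21 to 0.52.

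Signalling partners of the families were followed in a list of 59 genes, all present in both tables, of which 54 were tested at E16.5 and 52 at E14.5. Between SIX2+ and SIX2- cells 4 were called higher and 10 lower, between GFP+ and GFP- cells 7 and 10, and between Tdt+ and Tdt- cells 0 and 6. These are 25.9%, 31.5% and 11.5% of the partners tested, near the 24.3%, 32.9% and 8.43% of all genes called, so the counts show nothing particular to the partners. The medians were -0.22, -0.19 and -0.09. Met, the hepatocyte growth factor receptor that associates with class B plexins, was higher in SIX2+ cells by 1.70 ± 0.19 (SE, adjusted p = 1.15e-05 by limma) and in GFP+ cells by 2.37 ± 0.19 (SE, adjusted p = 3.38e-07). It was lower in Tdt+ cells by -3.25 ± 0.25 (SE, adjusted p = 0.000676), at means of 0.157 and 9.99 RPKM. Mical2, an enzyme that oxidises actin, went the same ways, by 0.93, 1.14 and -1.62. Adam10, a protease that cleaves ephrin-A ligands, was higher in SIX2+ cells by 1.06 (means 58.3 and 27.2 RPKM), and Dpysl4, of the collapsin response mediator family, by 1.21. Chn2, a GTPase-activating protein for Rac, was higher in GFP+ cells by 1.41 and lower in Tdt+ cells by -1.59.

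On the lower side, Dpysl3, another collapsin response mediator, fell by 2.32 on the log2 scale in SIX2+ cells (means 1.71 and 12.7 RPKM) and by 2.31 in GFP+ cells (means 3.16 and 19.8). Arhgef16 fell by 2.14 in SIX2+ cells, and Rras, a small GTPase acted on by plexins, fell by 1.53 in GFP+ cells. Kdr, the endothelial receptor for vascular endothelial growth factor, which can join neuropilins and plexins, fell by 1.90 in SIX2+, 2.17 in GFP+ and 2.61 in Tdt+ cells. It is also 1 of the 8 endothelial markers. Arhgef15, an exchange factor known from endothelial cells, fell by 1.65 in Tdt+ cells.

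The E14.5 calls rest on 4 libraries, with 2 residual degrees of freedom, and on Tdt+ libraries of lower depth, whose part was not tested. The number of genes called lower fell without Tdt- 1 or Tdt- 2 and rose without Tdt+ 1, in the families and over all genes alike. Without a Tdt- library, 38 rather than 45 of the families' genes were tested. Rescaling to TPM moved the median difference of all genes there from -0.04 to -0.29, and 16 of the families' genes were then called lower.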

How the data were processed

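Poly(A) RNA libraries had been made with a stranded Kapa kit from RNA isolated with RecoverAll and RNeasy Micro kits, per the labels' protocols; the kit of each library is unknown. TopHat2, Partek and the mouse build mm10 are named per the submitters' processing notes, and the sources used here give neither the annotation nor whether counting used strand. Separate tables were deposited for the 15 E16.5 and the 4 E14.5 libraries. The values the authors deposited behave as RPKM although the tables are titled TPM: column sums ran from 339454 to 429529 (coefficient of variation 7.99%) and from 342196 to 453324 (13.8%). The tables were normalised separately, so tests stayed within a table, and levels set across tables are descriptions.

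Genes with at least 1 RPKM in at least 3 (E16.5, 12817 genes) or 2 libraries (E14.5, 12383 genes) were tested as log2(RPKM + 1), pseudocount 1, with limma 3.58.1 (R 4.3.3, trended eBayes, two-sided) and Benjamini-Hochberg adjustment over all genes tested. All 15 E16.5 libraries were fitted together (10 residual degrees of freedom). On the log2 scale with a pseudocount, changes of low genes are understated. On simulated data, 77% of genes changed by 1 and 99% of those changed by 2 (log2) were recovered for the SIX2 comparison, and 44% and 99% for the Tdt comparison. The changes were placed only in genes with a mean log2(RPKM + 1) above 3, with independent noise, no shallow library and no pairing. These rates therefore do not cover the lower genes of the families. Depth was estimated from low values, of which 44.9% to 64.1%, depending on the library, came within 0.05 reads of whole numbers; the unit was chosen to raise this share, so depths are approximate.

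Same-numbered libraries deviated together across genes (r = 0.64, 0.28 and 0.68 in the SIX2 sort; 0.45, 0.44 and 0.39 in the GFP sort), so the numbers may pair the libraries; this comes from the data and not from a label. The reported tests are unpaired, and the replicate block was an alternative. Genes called with a mean of at least 5 RPKM in the higher group are given in every library; others were named after their values were seen. Of the signalling partners, those with the 3 largest changes in each direction are named. The family members and gene lists were chosen with earlier results of these data known. Positions and overlaps came from GENCODE M21, and tables and figures used python 3.11.15 with pandas 2.3.3, matplotlib 3.10.9 and numpy 2.4.6, and the R package data.table, version 1.17.8. Alternatives covered the pseudocount, the filter, the scaling, the replicate block and the libraries used.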

Additional observations from a re-analysis of the deposited data

How the results depend on the processing

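No call of a family member turned in direction under any alternative. In the alternatives, 14 of the 21 SIX2 calls, 18 of the 23 GFP calls and 1 of the 18 Tdt calls (Sema3g) passed wherever they could be tested. Sema3g could not be tested without Tdt- 1, without Tdt- 2 or with a filter of at least 5 RPKM. It therefore missed the leave-outs that ended many other Tdt calls. With a filter of at least 5 RPKM, which tests fewer genes, 9 members were lower in SIX2+ cells and 10 in Tdt+ cells. Over all genes, 1271 of 9664 and 408 of 9359 were then lower. In the Tdt comparison 1 member was lower with no filter and 11 with quantile normalisation, where 1 (Sema4f) was higher. Over all genes there, 221 of 18994 were lower with no filter and 483 of 12383 with quantile normalisation, against 893 in the reported test. Leaving out 1 library gave 0 to 2 higher and 7 to 30 lower there, 6 to 8 higher and 10 to 17 lower in the SIX2 comparison, and 7 to 9 higher and 11 to 19 lower in the GFP comparison. With the replicate block, 8 members were higher and 15 lower in SIX2+ cells, gaining Plxna3 (adjusted p = 0.0146 by limma) and Plxnb2. In GFP+ cells the block gave 10 higher and 17 lower, gaining Plxna3 (0.0157), Plxnb1 (0.0471), Sema4d (0.0265), Epha7 and Sema6d (0.0254) and losing Sema4c. In the interaction the block gave 1 lower (Efnb2). Over all genes the block gave 1468 higher and 2251 lower in SIX2+ cells, where the reported test gave 1073 and 2036. In GFP+ cells it gave 2569 and 2464 against 2035 and 2184, and in the interaction 5 and 22 against 6 and 12. The Tdt numbers were not taken as pairs. With 2 libraries per group, their correlations of 0.4 and 0.4 are equal by construction and count as 1 value. With the block 1 member (Efna3) was higher and 26 lower in Tdt+ cells, where all genes gave 613 and 1694 against 151 and 893. That fit has fewer residual degrees of freedom than the reported test, which has 2. Without NZC 2, Ephb1 (0.0317) and Sema4c (0.0474) passed in the SIX2 comparison and Sema4d (0.0158), Sema6d (0.0396) and Sema7a (0.02) in the GFP comparison, beside the genes named with their values in the text. The cause of these shifts was not tested. NZC 2 and the Tdt+ libraries, the shallowest, limit what low genes can show.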
